A study of Homo sapiens with 15 samples.

Results

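The 50 genes described here encode the proteins of the large (60S) subunit of the cytoplasmic ribosome and their paralogues. They were the genes of the RPL and RPLP families named in a list of symbols, found by symbol among the 21519 genes of the deposited count table. The same symbols held 1345 of the 721551 events of the deposited splicing table. The study sequenced poly(A) RNA of a human embryonic kidney cell line, HEK-293, as cytoplasmic lysate (Input) and as the heavy sucrose gradient fractions 8 to 12 of 12, which hold polysomes. GEMIN5 cells had been transfected with the plasmid pcDNA3Xpress-Gemin5 by a lipid reagent and were harvested 24 h later, while control cells were untreated and so received neither reagent nor plasmid. The groups were Input GEMIN5 (n = 3), Input control (n = 4), polysome GEMIN5 (n = 4) and polysome control (n = 4), and cells of all groups were held in cycloheximide before lysis. The samples are described as independent, but how the cultures were separated is not given in the sources used here, so a p-value here covers the spread among these libraries, which may be partly technical.

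Each large subunit carries a single copy of most of these proteins, and their mRNAs are short and abundant. Most start with a C followed by a run of pyrimidines, the 5′ terminal oligopyrimidine (TOP) tract, through which the kinase mTORC1 and the protein LARP1 set how strongly they are translated. GEMIN5, a WD-repeat protein of the SMN complex that delivers snRNAs for spliceosome assembly, also binds ribosomes and takes part in translational control. Several members have paralogues with separate genes, among them RPL22L1, RPL26L1, RPL36AL, RPL39L and RPL7L1, of which the last is related to Rlp7, a large subunit assembly factor of yeast.

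The annotated first bases of the members were compared with this rule, because the tract defines the class and because some paralogues lacked it. A tract was counted where the first base was C and at least 4 further C or T followed. RefSeq (GRCh38.p14) listed the start of 42 of the 50 members. Of these 42, 29 (69.0%) had a tract at a listed start, against 5.14% of the 27305 genes with a listed start. The windows below run from 10 bases before the start to the 20th base of the transcript, 5′ to 3′, and capitals mark the tract. Members with a tract included the stalk proteins, RPL39, RPL37A, RPL41 and RPL22L1.
RPLP0 (chr12:120201092-120201121, minus strand): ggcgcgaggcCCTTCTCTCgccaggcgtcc
RPLP1 (chr15:69452808-69452837, plus strand): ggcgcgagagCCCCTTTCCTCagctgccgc
RPLP2 (chr11:809957-809986, plus strand): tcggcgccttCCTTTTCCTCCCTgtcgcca
RPL12 (chr9:127451387-127451416, minus strand): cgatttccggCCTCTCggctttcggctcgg
RPL39 (chrX:119791611-119791640, minus strand): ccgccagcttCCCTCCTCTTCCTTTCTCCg
RPL37A (chr2:216498834-216498863, plus strand): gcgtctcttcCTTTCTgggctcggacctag
RPL41 (chr12:56116623-56116652, plus strand): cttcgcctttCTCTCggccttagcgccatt
RPL22L1 (chr3:170870176-170870205, minus strand): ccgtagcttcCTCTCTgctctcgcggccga
The paralogues RPL26L1, RPL36AL and RPL7L1 had none at a listed start, and neither had RPL4, whereas RPL26 and RPL36A, the partners of RPL26L1 and RPL36AL, had one.
RPL26 (chr17:8383174-8383203, minus strand): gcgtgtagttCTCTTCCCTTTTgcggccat
RPL26L1 (chr5:172958719-172958748, plus strand): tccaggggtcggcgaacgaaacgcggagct
RPL36A (chrX:101391001-101391030, plus strand): ctcgcggtttCTTTCTTTCCgcgccgatag
RPL36AL (chr14:49620607-49620636, minus strand): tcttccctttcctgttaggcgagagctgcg
RPL7L1 (chr6:42879606-42879635, plus strand): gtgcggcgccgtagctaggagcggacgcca
RPL4 (chr15:66504836-66504865, minus strand): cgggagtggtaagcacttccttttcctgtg
Listed starts are annotated positions and were not measured in these cells. RPL36AL, RPL4, RPL9, RPL10A and RPL19 had no tract by the rule, but have runs of pyrimidines close to the listed start that the rule does not count.

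The libraries held 11191417 to 18407933 gene counts. All 8 HEK-293 marker genes had counts in each group. They summed to 4665 to 5990 counts in Input GEMIN5 and 13388 to 15423 in Input control, without overlap. In polysomes they summed to 6668 to 9720 counts in GEMIN5 cells and 5938 to 12823 in control cells. With library totals only, all 8 were called lower in Input GEMIN5 than in Input control, where 76% of all tested genes were. GEMIN5 itself had 1319, 1543 and 1422 CPM (counts relative to the library total, here scaled by TMM, the trimmed mean of M values) in Input GEMIN5, against 12.4, 14.8, 12.6 and 15.9 CPM in Input control. The TMM factors stood apart in Input GEMIN5, at 0.4883, 0.3544 and 0.3741, against 0.9709 to 1.032 in Input control, while they were 1.27 to 1.554 in polysomes. A list of 12 liver genes summed to 28 to 46 counts in Input GEMIN5, against 19, 11, 1629 and 1326 counts in the 4 libraries of Input control. In polysomes it summed to 7 to 24 counts in GEMIN5 cells and to 1390 to 1929 counts in control cells. All 12 genes had counts in both control groups, while 9 of the 12 were at 0 in every Input GEMIN5 library, albumin among them, and 6 in every polysome GEMIN5 library. A list of 8 blood cell genes summed to 92 to 116 counts in Input GEMIN5 and 68 to 107 in Input control, and to 82 to 110 in polysome GEMIN5 and 170 to 255 in polysome control. Liver genes made up at most 0.0172% of a library, the part of these genes and of the scaling factors in the results was not tested, and counts are given also without Input control replicates 3 and 4.

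The members made up 31.5 ± 1.26% of all gene counts in Input GEMIN5 (SD, n = 3) and 19.8 ± 0.31% in Input control (SD, n = 4). The lowest Input GEMIN5 library was at 30.1% and the highest Input control library at 20.2%, so these groups did not overlap. In polysomes the members held 13.7 ± 1.14% of counts in GEMIN5 cells and 13.7 ± 1.55% in control cells (SD, n = 4 each), and the libraries overlapped. The summed counts of the members over those of the small subunit proteins gave a ratio of 1.22 in Input GEMIN5 and 1.36 in Input control, and of 1.55 in polysome GEMIN5 and 1.58 in polysome control. A share of counts needs no scaling between libraries, but it also rises where other genes hold fewer counts. It cannot tell a rise of the members from a fall of other genes. In bulk samples, more cells with a high level and more RNA per cell cannot be told apart.

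For 4 members the deposited gene counts were far below their spliced reads. RPL17 had 0 to 1 counts, RPL26 0 to 5, RPL36A 7 to 24 and RPL22 38 to 68 over the 15 libraries. Each overlaps another annotated gene on its own strand, RPL17-C18orf32, ENSG00000263809, RPL36A-HNRNPH2 and ENSG00000285629 in that order. Their introns were nevertheless spliced in many reads of the splicing table, for example in 48676 to 51694 reads per coding intron for RPL26 in Input GEMIN5 and in 17585 to 24271 in Input control. The other members with spliced reads gave 2.3 to 19.5 gene counts per spliced read, against at most 0.0109 for these 4. Results on gene counts are therefore given for 46 members, and results on spliced reads add RPL17, RPL22, RPL26 and RPL36A. RPL17 and RPL26 fell below the count filter, which left 48 of the 50 members tested among 12197 genes.

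In Input, nearly the whole family was higher in GEMIN5 cells than in control cells. Of the 48 tested members, 45 were called higher and 1 lower (edgeR's quasi-likelihood test, adjusted p under 0.05), where 27.1% of all tested genes were called higher and 24.3% lower. Among the 46 with usable counts the calls were 43 higher and 1 lower, with a median log2 fold change of 2.03 and a range of -0.44 to 2.83, against a median of -0.01 over all tested genes. Standard errors of the members ran from 0.137 to 0.238. Without TMM, dividing by library totals only, the median of all genes moved to -1.29 and that of the tested members to 0.70. In that scaling 35 members were called higher and 6 lower, namely RPL3, RPL4, RPL5, RPL6, RPL14 and RPL7L1. Of all tested genes 4.96% were called higher and 76% lower in it. Spliced reads summed per gene, a second readout of the same libraries, called 47 of 49 members higher and 1 lower, with a median of 2.25 and a range of -0.51 to 3, where 28.3% of genes were called higher and 27.3% lower. Without Input control replicates 3 and 4, 44 members were called higher and 0 lower, and the share of all genes called in that fit is not given here.

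The highest fold changes belonged to members with short coding sequences. RPL39, a small protein in the wall of the peptide exit tunnel, had 32624, 47569 and 45098 CPM in Input GEMIN5, against 6382, 5823, 6105 and 5263 CPM in Input control. The Input GEMIN5 libraries all lay above the control libraries, with replicate 1 the lowest of the 3. Its log2 fold change was 2.83 (SE 0.218, adjusted p = 1.58e-08, edgeR's quasi-likelihood test). RPL37, a zinc-binding protein, had 18271, 26477 and 23682 CPM in Input GEMIN5, against 3494, 3344, 3543 and 3126 CPM in Input control, a log2 fold change of 2.76 (SE 0.197). RPL37A, another zinc-binding protein, had 27188, 39938 and 36285 CPM in Input GEMIN5, against 5434, 5379, 5436 and 4838 CPM in Input control, a log2 fold change of 2.71 (SE 0.205). RPL41, RPL22L1 and RPL38 followed with log2 fold changes of 2.68, 2.58 and 2.58, and in each the groups did not overlap.

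The P stalk, which recruits and activates the GTPases of translation, is formed by RPLP0, its dimers of RPLP1 and RPLP2, and RPL12 at its base. All 4 of its mRNAs were called higher in Input GEMIN5. RPLP1 had 35555, 56768 and 53085 CPM in Input GEMIN5, against 8341, 8416, 8244 and 7743 CPM in Input control. RPLP2 had 17008, 24236 and 22350 CPM in Input GEMIN5, against 4013, 3980, 3850 and 3735 CPM in Input control. RPL12 had 24034, 39700 and 36519 CPM in Input GEMIN5, against 6898, 6587, 6603 and 6029 CPM in Input control. In each, replicate 1 was the lowest GEMIN5 library and lay far above every control library. The log2 fold changes were 2.57 for RPLP1, 2.44 for RPLP2, 2.36 for RPL12 and 1.74 for RPLP0, with standard errors of 0.198 to 0.204.

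RPL11 and RPL5, which form a particle with the 5S rRNA, had lower fold changes. RPL11 had 7123, 9077 and 8184 CPM in Input GEMIN5 and 3279, 3155, 3144 and 2858 CPM in Input control, a log2 fold change of 1.39 (SE 0.163, adjusted p = 1.05e-06, edgeR). RPL5 had 6099, 6122 and 6672 CPM in Input GEMIN5 and 5011, 4728, 4700 and 4342 CPM in Input control, a log2 fold change of 0.42 (SE 0.137, adjusted p = 0.0143, edgeR). The RPL5 libraries did not overlap, but its call was lost without Input GEMIN5 replicate 2 (edgeR adjusted p = 0.393), without Input GEMIN5 replicate 3 (0.0618), without Input control replicate 4 (0.0639) and without control replicates 3 and 4 (0.161). It was also lost with RLE scaling (edgeR adjusted p = 0.0634) and with no filter on low counts (0.0891), and its value was -0.87 with library totals only.

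**Figure D1:**
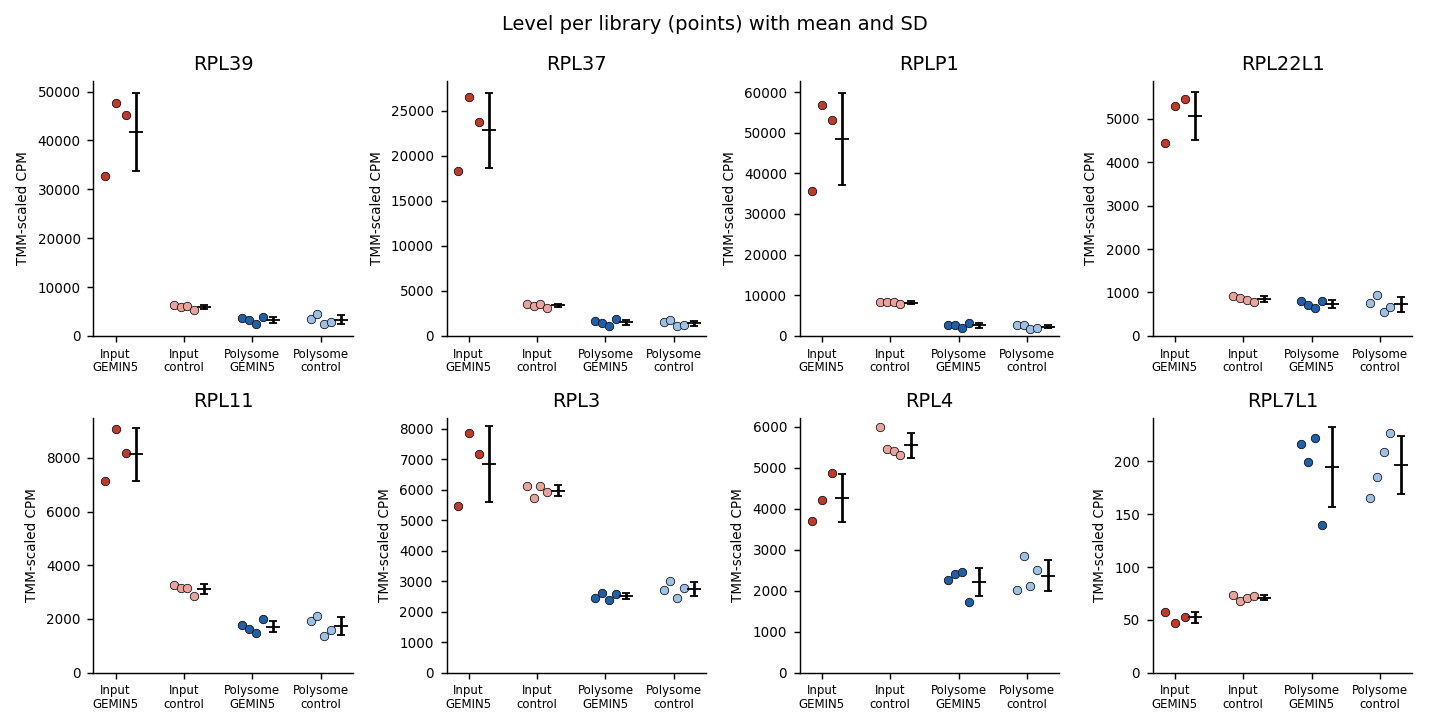
CPM (TMM scaled) of 8 members in each of the 15 libraries. Input GEMIN5 stands left of Input control and polysome GEMIN5 left of polysome control. Points are libraries and bars are means ± SD. RPL39, RPL37, RPLP1, RPL22L1 and RPL11 lay higher in all 3 Input GEMIN5 libraries than in any Input control library, whereas the polysome groups overlapped; with library totals only, RPL11 was not called (log2 fold change 0.08).

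The 2 longest members, RPL4 and RPL3, were not called higher by gene counts, while RPLP0, the next in coding length, was. RPL3, which reaches into the peptidyl transferase centre, had 5457, 7871 and 7176 CPM in Input GEMIN5 and 6117, 5722, 6112 and 5921 CPM in Input control. The groups overlapped, since GEMIN5 replicate 1 lay below every control library, and the log2 fold change was 0.20 (SE 0.144, adjusted p = 0.272, edgeR). Its spliced reads were called higher, at 0.40 (edgeR adjusted p = 0.0115), and with library totals only its counts were called lower, at -1.12. RPL4, whose extension lines the exit tunnel, had 3692, 4214 and 4874 CPM in Input GEMIN5 and 6003, 5450, 5400 and 5306 CPM in Input control. All 3 GEMIN5 libraries lay below all 4 control libraries, at a log2 fold change of -0.38 (SE 0.165, adjusted p = 0.0629, edgeR), and DESeq2 called it lower (adjusted p = 0.00834). It was also called lower by edgeR without Input GEMIN5 replicate 2 (adjusted p = 0.0239) or replicate 3 (0.0458), without polysome control replicate 2 (0.0472) and without polysome GEMIN5 replicate 4 (0.0457).

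RPL7L1 was the member called lower by counts. It had 57.4, 47.2 and 52.3 CPM in Input GEMIN5 and 73.2, 68.3, 70.7 and 72.3 CPM in Input control, without overlap, a log2 fold change of -0.44 (SE 0.155, adjusted p = 0.0228, edgeR). This call was lost without Input GEMIN5 replicate 3 (edgeR adjusted p = 0.0615) and without Input control replicates 3 and 4 (0.0671). Its partner RPL7, a protein that binds large subunit rRNA, had 7713, 11650 and 12202 CPM in Input GEMIN5, against 4736, 4653, 4295 and 4068 CPM in Input control. RPL7 did not overlap between the groups and had a log2 fold change of 1.25 (SE 0.189, adjusted p = 2.03e-05, edgeR), which turned to -0.08 with library totals only. The other paralogues were called higher. RPL22L1 had 4434, 5300 and 5460 CPM in Input GEMIN5, against 918, 884, 817 and 776 CPM in Input control. RPL39L, in mice a protein of male germ cells, had 181, 304 and 270 CPM in Input GEMIN5, against 64.6, 62.2, 60.9 and 61.5 CPM in Input control. For both, all GEMIN5 libraries lay above all control libraries, and the log2 fold changes were 2.58 (SE 0.172) and 2.02 (SE 0.179). RPL36AL had 1506, 1891 and 1692 CPM in Input GEMIN5 and 557, 574, 551 and 498 CPM in Input control, a log2 fold change of 1.64 (SE 0.155). RPL26L1 had 618, 711 and 670 CPM in Input GEMIN5 and 260, 274, 260 and 228 CPM in Input control, a log2 fold change of 1.38 (SE 0.143), which was 0.09 and not called with library totals only. RPL10A, a protein of the L1 stalk that, like RPL3 and RPL12, is known for unproductive splice forms of its own mRNA, had 9853, 14692 and 14220 CPM in Input GEMIN5, against 3739, 3602, 3668 and 3302 CPM in Input control. Its groups did not overlap, and its log2 fold change was 1.85 (SE 0.178).

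Across members, the fold change in Input fell with coding length. Spearman's rho between the log2 fold change and the coding length was -0.813 over 46 members by counts and -0.814 over 49 members by spliced reads, a description across genes that share the same libraries. The 6 members under 300 coding nt had a median log2 fold change of 2.7, the 25 from 300 to below 600 nt 2.17, the 12 from 600 to below 900 nt 1.43, and the 3 from 900 to below 1500 nt 0.20. Other tested genes in these classes had medians of 1.52 (244 genes), 0.85 (1228), 0.22 (1628) and -0.13 (3356). In longer classes, which hold no member, other genes had medians of -0.24 from 1500 to below 3000 nt (3854 genes) and 0.10 from 3000 nt (1726). Below 3000 nt the medians thus ran from higher to lower with length, and the members lay above the other genes in each class that held members. In the comparison of polysome libraries the same 4 classes of members had medians of 0.06, 0.01, -0.03 and -0.09.

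**Figure D2:**
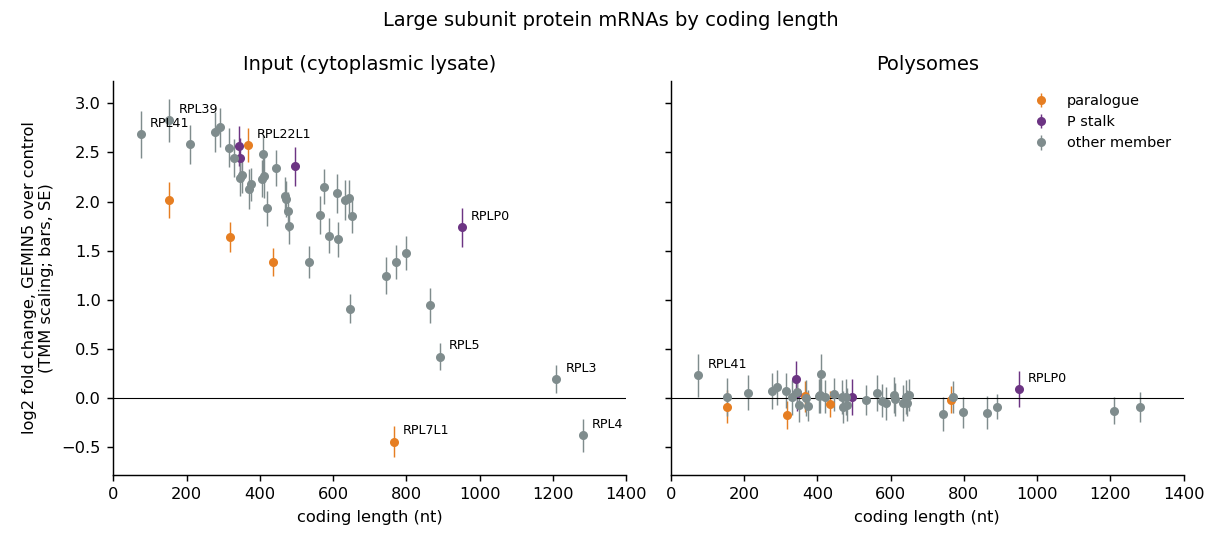
Log2 fold change of GEMIN5 over control against coding length (nt) for the usable members, in Input and in polysomes. In Input the members lie between -0.44 for RPL7L1 and 2.83 for RPL39, and in polysomes between -0.17 and 0.24. With library totals only, 6 members were called lower in Input, beside 76% of all tested genes.

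Spliced reads of single introns gave the ratio at several places along an mRNA. For RPL3, with 9 coding introns, the log2 ratio of Input GEMIN5 over Input control was -0.06 at the first intron, 1206 coding nt before the stop codon, and 0.70 at the last, 42 nt before it. In RPL4 it was -0.66 at the first intron, 1278 nt before the stop codon, and -0.07 at the last, 243 nt before it. Most members were flatter. Of 40 members with at least 3 coding introns, 34 had first and last introns within 0.25 of each other on the log2 scale, such as RPL12 with 2.38 at the first and 2.36 at the last. The last intron lay higher by more than 0.25 in RPL3, RPL4, RPL5, RPL6 and RPL27A and lower in RPL7L1, which had under 20 reads at an end intron in some libraries, and the median difference, last minus first, was 0.06. Pooled over members and with at least 20 reads in every library, the 49 introns within 150 nt of the stop codon had a median log2 ratio of 2.25. The 49 introns over 150 and up to 300 nt away had 2.13, the 68 over 300 and up to 600 nt away 1.88, and the 24 farther away, from 10 members, 0.31. These classes hold different members, and the farthest can hold only members with over 600 coding nt.

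The ratio of reads at the first coding intron over the last was computed per library for members with at least 3 coding introns and 20 reads at both. RPL3 had ratios of 0.249, 0.473 and 0.401 in Input GEMIN5, against 0.609, 0.68, 0.61 and 0.662 in Input control. RPL4 had 0.231, 0.349 and 0.367 in Input GEMIN5, against 0.458, 0.53, 0.471 and 0.474 in Input control. In both the GEMIN5 libraries lay below the control libraries. Of 39 members with a ratio, 10 were lower in every Input GEMIN5 library than in any Input control library, where 44.4% of the 1526 genes with a ratio were. In polysomes 0 of 39 members were, beside 0.852% of genes. The median log2 difference in Input was -0.09 for the members and -0.29 for all genes with a ratio. Over all genes with a ratio the library medians were lower in Input GEMIN5 too, with values of -0.80, -0.72 and -0.72 on the log2 scale in Input GEMIN5, against -0.42 to -0.32 in Input control. The part of this ratio in the differences by length was not tested.

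**Figure D3:**
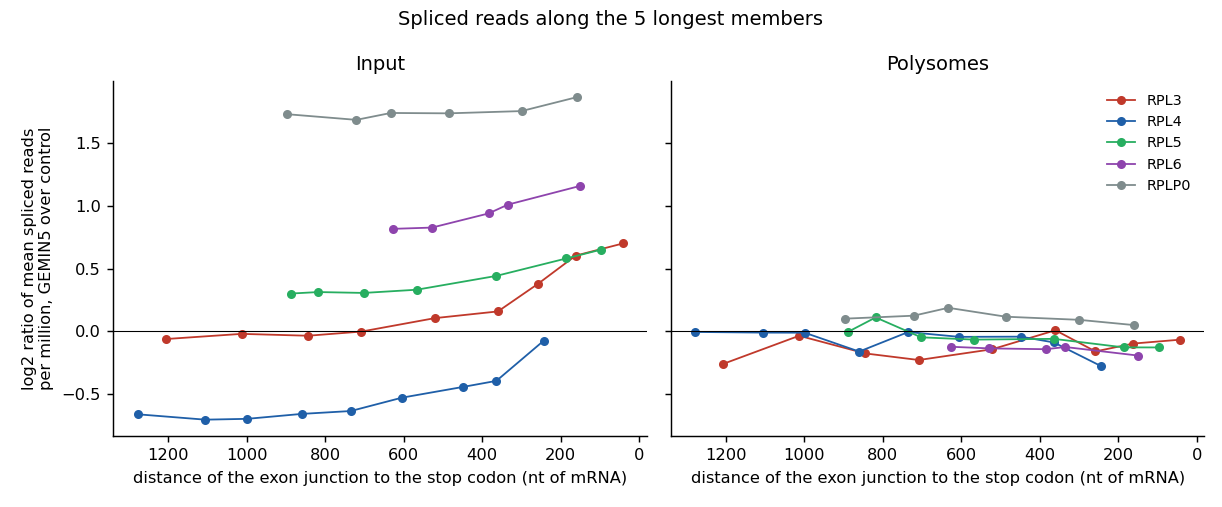
Log2 ratio of library-scaled spliced reads, Input GEMIN5 over Input control and polysome GEMIN5 over polysome control, at each coding intron of the 5 longest members, against the coding distance to the stop codon (nt). In Input the ratio of RPL3 was -0.06 at the intron farthest from the stop codon and 0.70 at the nearest.

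In polysomes the members did not differ detectably between GEMIN5 and control cells. Of the 48 tested members 0 were called higher and 0 lower by edgeR's quasi-likelihood test, and also 0 by DESeq2, where edgeR called 0.0820% of all tested genes higher and 0.320% lower. At an unadjusted p under 0.05 there were 0 members and 706 genes in all. The log2 fold changes of the 46 usable members ran from -0.17 for RPL36AL to 0.24 for RPL28, with a median of 0.01 and standard errors of 0.127 to 0.215. RPL28 had 1296, 1293, 834 and 1667 CPM in polysome GEMIN5 and 1274, 1302, 838 and 891 CPM in polysome control. RPL39 had 3646, 3164, 2467 and 3903 CPM in polysome GEMIN5 and 3466, 4452, 2338 and 2810 CPM in polysome control. The groups overlapped for each usable member, and in most of the members named here replicate 3 was the lowest library of both polysome groups. Spliced reads called 0 of 49 members, beside 0.0755% of genes higher and 0.245% lower. The smallest adjusted p among the members was 0.952.

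The change with GEMIN5 differed between the fractions for nearly all members. The difference of the log2 fold changes, polysomes minus Input, was called lower than 0 for 45 of the 48 tested members and called higher for 0 (edgeR's interaction test, adjusted p under 0.05), where 16.9% of all genes were called higher and 20.5% lower. DESeq2 called 45 members lower and 1, RPL7L1, higher. The median over usable members was -2.05. With library totals only, 34 members were called lower and 5 higher, where 3.17% of all tested genes were called lower and 69% higher. The median of the tested members was then -0.70 and that of all genes 1.27. For RPL39 the difference was -2.81 (SE 0.291, adjusted p = 2.42e-06), and for RPLP2 -2.39 (SE 0.27, adjusted p = 4e-06, edgeR). RPL5 had a difference of -0.51 (SE 0.187, adjusted p = 0.039, edgeR), which was lost with the replicate number as a block (-0.49, adjusted p = 0.0743) and turned to 0.79 with library totals only. That call was also lost without any one of Input GEMIN5 replicates 2 and 3, Input control replicates 2, 3 and 4, polysome GEMIN5 replicates 1, 2 and 3 and polysome control replicates 2 and 4 (edgeR adjusted p = 0.0541 to 0.374). The 3 members not called were RPL3 (-0.32, adjusted p = 0.215), RPL4 (0.29, adjusted p = 0.344) and RPL7L1 (0.43, adjusted p = 0.116, edgeR). RPL7L1 was called higher without Input GEMIN5 replicate 2 (edgeR adjusted p = 0.0426) and without polysome GEMIN5 replicate 4 (0.0137).

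Most members were lower in polysomes than in Input of untreated cells. In control cells 41 of 48 tested members were called lower in polysomes and 1 higher, where 19.1% of all tested genes were lower and 24.1% higher (edgeR's quasi-likelihood test). The median over usable members was -0.95, with a range of -1.87 to 1.47. Spliced reads called 44 of 49 members lower and 1 higher, beside 14.8% and 16.8% of genes. Dividing by library totals moved the median of all genes to 0.54 and that of the tested members to -0.41, with 33 members lower and 5 higher. Of all tested genes 4.59% were then called lower and 53.2% higher. Without Input control replicates 3 and 4, 39 were called lower and 1 higher, and the share of all genes called in that fit is not given here.

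Of the 4 stalk mRNAs, 3 lay lowest among the members. RPLP1 had 2564, 2599, 1799 and 2021 CPM in polysome control, against 8341, 8416, 8244 and 7743 CPM in Input control, a log2 fold change of -1.87 (SE 0.191, adjusted p = 7.21e-07, edgeR). RPLP0 had 3720, 3822, 2549 and 2936 CPM in polysome control, against 11261, 11126, 11307 and 10792 CPM in Input control, a log2 fold change of -1.77 (SE 0.189). For both, every polysome library lay far below every Input library. RPL12 followed at -1.59 and RPL13A at -1.39. The fourth stalk mRNA, RPLP2, stood at -0.90 (SE 0.184), near the median of the members. Of the other members, RPL35, RPL35A, RPL36 and RPL38 were among the least lowered of those called, at -0.54, -0.62, -0.62 and -0.62. With library totals only these 4 were not called, at -0.04, -0.12, -0.11 and -0.12 (edgeR adjusted p = 0.369 to 0.789). The RPL35 call was also lost by spliced reads (-0.42, edgeR adjusted p = 0.0613), without Input control replicate 2 (0.052) or 3 (0.0505) or both 3 and 4 (0.0868), and without polysome control replicate 3 (0.0733) or 4 (0.072). That of RPL36 was lost without Input control replicates 3 and 4 (edgeR adjusted p = 0.0548).

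None of the 5 paralogues was called lower in this comparison. RPL7L1 had 165, 185, 209 and 227 CPM in polysome control, against 73.2, 68.3, 70.7 and 72.3 CPM in Input control, a log2 fold change of 1.47 (SE 0.142, adjusted p = 3.6e-07, edgeR). It was the member called higher in polysomes. The groups overlapped for RPL39L, RPL26L1, RPL22L1 and RPL36AL, with log2 fold changes of 0.20, -0.10, -0.22 and -0.26 and adjusted p-values of 0.346, 0.554, 0.264 and 0.152 (edgeR). With library totals only all 4 turned to or stayed at positive values and were called higher, at 0.71, 0.40, 0.28 and 0.24. Without polysome control replicate 2, RPL22L1 (edgeR adjusted p = 0.0493) and RPL36AL (0.0252) were called lower. RPL22 and RPL36A, the other members not called, had low gene counts, and their spliced reads were called lower at -0.63 and -0.95. The 26 usable members with a listed TOP tract had a median of -0.88 and the 12 without one -0.98. In Input the same sets had median log2 fold changes of 2.22 and 1.63 between GEMIN5 and control. The sets rest on listed starts, and the set without a tract holds RPL3 and RPL4, the 2 longest members. The part of coding length in the difference between the sets was not tested.

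**Figure D4:**
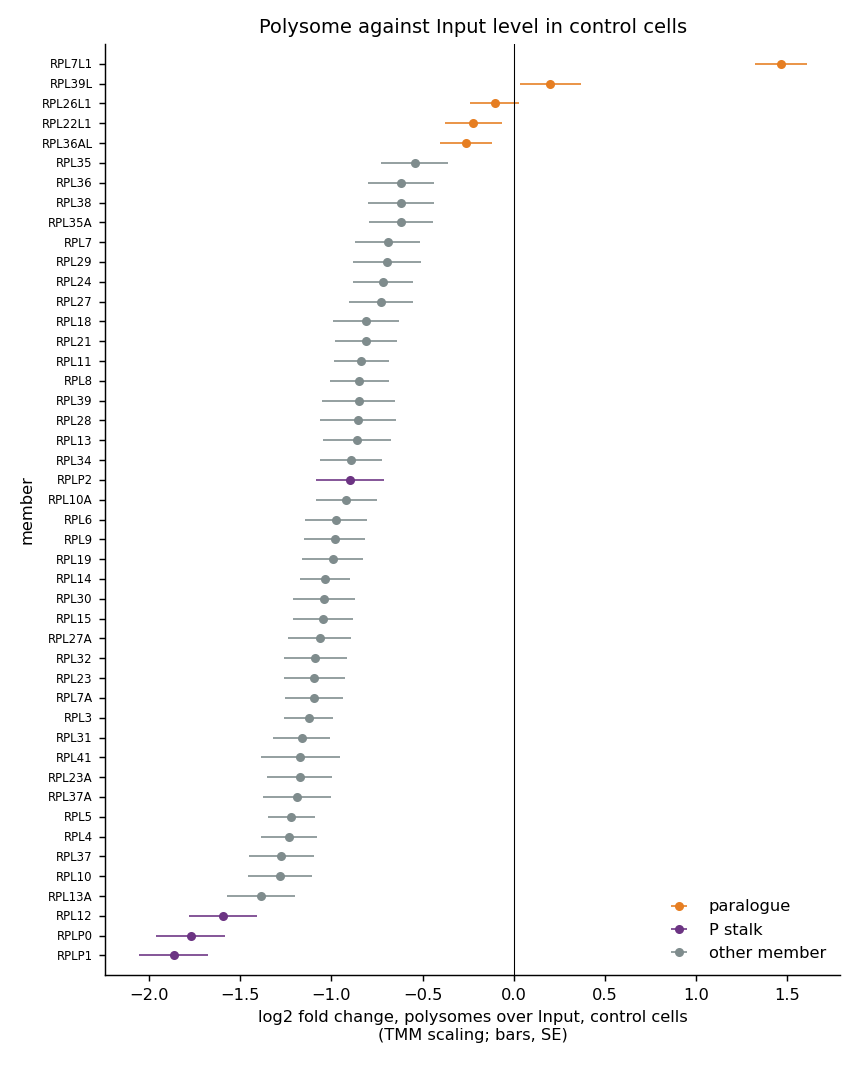
Log2 fold change of polysomes over Input for each usable member in control cells. RPLP1 lies lowest (-1.87) and RPL7L1 is the member called higher by edgeR (1.47). In GEMIN5 cells RPLP1 was lowest too (-4.24) and RPL7L1 was called higher (1.89). With library totals only, RPL22L1, RPL26L1 and RPL36AL turned positive in control cells, and RPL3, RPL4, RPL5 and RPL26L1 in GEMIN5 cells.

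In GEMIN5 cells 47 of 48 tested members were called lower in polysomes than in Input and 1 higher, where 35.0% of all tested genes were lower and 32.6% higher (edgeR). The median over usable members was -2.90. This comparison shares its Input libraries with the comparison of GEMIN5 and control cells in Input. RPLP1 had a log2 fold change of -4.24 (SE 0.217), RPL12 of -3.94 (SE 0.212) and RPL37 of -3.92 (SE 0.205), while RPL7L1 had 1.89 (SE 0.161). RPL4 and RPL3 had -0.95 and -1.45, and with library totals only they turned to 0.88 and 0.39. In that scaling the median of all genes was 1.78, that of the tested members was -1.02, and 38 members were called lower and 5 higher. Of all tested genes 3.81% were called lower and 84.5% higher in it.

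For 3 of the 5 paralogue pairs both genes have introns whose spliced reads can be set side by side. RPL22L1 and RPL22, whose coding sequences share 70.6% of aligned positions, had a ratio of reads per intron of 1.20, 1.27 and 1.43 in Input GEMIN5, against 0.732, 0.747, 0.681 and 0.719 in Input control. RPL22L1 thus had more spliced reads than RPL22 in each Input GEMIN5 library and fewer in each Input control library. In polysomes the ratios were 1.21, 1.19, 1.07 and 0.997 in GEMIN5 cells and 1.01, 1.05, 1.01 and 1.05 in control cells. The log2 difference was 0.85 in Input (exact permutation test, p = 0.0571, with no smaller p possible for 3 against 4; Benjamini-Hochberg over 12 ratios, 0.0857) and 0.11 in polysomes (p = 0.171, two-sided exact permutation test). RPL26L1, which shares 84.1% of positions with RPL26, went the other way, with ratios of 0.0277, 0.0248 and 0.0237 in Input GEMIN5 against 0.0481, 0.0568, 0.0499 and 0.0499 in Input control. RPL7L1 was the rarer gene of its pair in every library, at most 0.0209 of RPL7. With identities of 62.0% to 94.8% over the 5 pairs, reads of the closest pairs, RPL39L with RPL39 and RPL36AL with RPL36A, may be split between the copies, and pseudogenes of other members likewise leave their counts uncertain.

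Other genes of the translation machinery were counted from lists. Of 33 small subunit genes, 31 were tested and all 31 were called higher in Input GEMIN5 than in Input control, with a median log2 fold change of 2.19 (edgeR), where 27.1% of all tested genes were called higher and 24.3% lower. Of 20 other mRNAs known to carry TOP tracts, 17 were tested in Input, with 6 higher and 8 lower and a median of -0.29. TPT1 had a log2 fold change of 1.44, while the elongation factors EEF2 and EEF1A1 had -1.42 and -0.71. Of 36 assembly factors and chaperones of the large subunit, 35 were tested, with 4 higher and 16 lower and a median of -0.32. Of 9 regulators of TOP mRNAs and of the 5S particle, all tested, 3 were higher and 3 lower. With library totals only, 29 small subunit genes were called higher and 0 lower in Input, 2 other TOP mRNAs higher and 14 lower, 0 assembly factors higher and 34 lower, and 1 regulator higher and 6 lower, where 4.96% of all tested genes were called higher and 76% lower. In polysomes against Input of control cells, 27 small subunit genes and 14 of the other TOP mRNAs were called lower, with medians of -1.04 and -1.05, and with library totals only 23 and 12 were. Of all tested genes 19.1% were called lower in that comparison, and 4.59% with library totals only.

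The splicing table gives the percent spliced in (PSI), the share of reads of an event that include the exon, intron or site. Of the 1345 events of the members, 90 in 33 genes had at least 10 reads in every library and a PSI that varied, namely 5 exons, 12 retained introns, 20 alternative acceptors and 53 alternative donors. In Input, 6 of the 90 were called between GEMIN5 and control cells (limma on log2 odds, adjusted p under 0.05), beside 10.2% of all 12696 tested events. In polysomes 0 were called by limma, with 6 member events at an unadjusted p under 0.05, beside 0.00788% of events called. The change differed between the fractions for 2 events, beside 1.94% of events. Between polysomes and Input 12 were called in GEMIN5 cells, beside 11.7% of events, and 0 in control cells, with 18 member events at an unadjusted p under 0.05, beside 0.0866% of events called. No other tool was run on events.

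RPL41, the smallest protein of the ribosome, has a coding exon whose inclusion was called lower in Input GEMIN5 than in Input control. The 23 coding bases of the exon are shown in capitals with flanking coding bases, because skipping them removes 23 of 75 coding bases and so shifts the reading frame (chr12:56117189-56117211, plus strand, GRCh38).
RPL41 exon: aagTGGAGGAAGAAGCGAATGCGCAGgctg
Its PSI was 68.8, 73.0 and 71.6 in Input GEMIN5, against 89.3, 91.7, 88.8 and 87.4 in Input control (limma adjusted p = 0.00777). In polysomes it was 62.1, 70.6, 79.0 and 79.4 in GEMIN5 cells, against 93.7, 89.1, 87.4 and 90.2 in control cells (limma adjusted p = 0.22, unadjusted p = 0.000104). In both fractions every GEMIN5 library lay below every control library, and the log2 odds differences were -1.77 (SE 0.366) in Input and -1.76 (SE 0.339) in polysomes. An alternative donor in the same gene (chr12:56116781-56116799) rose to 16.6 ± 1.65 in Input GEMIN5, against 5.82 ± 0.86 in Input control (SD, n = 3 and 4, limma adjusted p = 0.00844). In polysomes that donor had a PSI of 16.7 ± 5.4 in GEMIN5 cells and 4.98 ± 1.7 in control cells (SD, n = 4 each, limma adjusted p = 0.198). The donor rested on 257 to 1530 reads per library. It may share reads with the exon, which was not tested, so the 2 calls may not be independent. The exon rested on 266 to 1603 reads per library. RPL41 had 20341 to 166874 gene counts per library, at 2.3 gene counts per spliced read of a coding intron in Input control. The exon event thus covers a small part of the junction reads of RPL41. Its PSI is not a measured share of all RPL41 mRNA.

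RPL7L1 changed at 2 neighbouring introns. Retention of intron 5 of its 6 introns (chr6:42886084-42886255) was 22.03, 40 and 12.8 in Input GEMIN5, against 6.98, 4.81, 4.48 and 10.8 in Input control (limma adjusted p = 0.0149). Intron 6 (chr6:42886471-42887159), which starts 9 nt after the stop codon, had 12.2, 7.32 and 5.88 in Input GEMIN5, against 37.7, 27.7, 30.7 and 33.3 in Input control (limma adjusted p = 0.00119). Retention of intron 5 was thus higher and that of intron 6 lower in all 3 Input GEMIN5 libraries than in any control library, on 18 to 288 reads per library. In polysomes intron 5 had 1.95 ± 0.96 in GEMIN5 cells and 3.40 ± 1.01 in control cells, and intron 6 had 49.3 ± 7.34 in GEMIN5 cells and 47.8 ± 6.33 in control cells (SD, n = 4 each). Neither changed detectably there, and both were called in the test of the difference between fractions (limma adjusted p = 0.042 and 0.0213). For intron 5 this call was lost without any one of Input GEMIN5 replicates 1 and 2, Input control replicates 1, 2 and 3, polysome GEMIN5 replicates 1, 3 and 4 and polysome control replicates 1, 2 and 4 (limma adjusted p = 0.0601 to 0.0907). For intron 6 it was lost without Input control replicates 3 and 4 together (limma adjusted p = 0.0889).

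In RPL9 and RPL27, retention of the first intron was lower in Input GEMIN5. The first intron of RPL9 (chr4:39458441-39458890) had a PSI of 8.99, 7.91 and 9.77 in Input GEMIN5, against 16.6, 17.8, 16.9 and 18.7 in Input control (limma adjusted p = 0.00727). The first of 4 introns of RPL27 (chr17:42998472-42998748) had 1.52, 1.29 and 1.16 in Input GEMIN5, against 3.01, 3.15, 2.87 and 2.79 in Input control (limma adjusted p = 0.0187). In both, no GEMIN5 library reached a control library. Over the 12 tested introns of 10 members, 10 had a lower mean PSI in Input GEMIN5 than in Input control and 2 a higher one, with a median difference of -2.7 PSI points. The direction over introns of other genes is not given here, so this count describes these introns alone. The RPL27 call was lost without Input GEMIN5 replicate 2 (limma adjusted p = 0.0568) or replicate 3 (0.0651) and without Input control replicates 3 and 4 (0.0892). That of RPL7L1 intron 5 was lost without Input GEMIN5 replicate 2 (limma adjusted p = 0.0775) and without Input control replicates 3 and 4 (0.0564), and that of RPL9 without these control replicates (0.0603).

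Between polysomes and Input of GEMIN5 cells, the called events besides those of RPL7L1, RPL9 and RPL27 were introns of RPLP0, RPL17, RPL36A, RPL13 and RPL41 and donors of RPL35A and RPL13A. The first intron of RPLP0 (chr12:120200832-120201082) had a PSI of 34.9, 31.4, 27.1 and 35.0 in polysome GEMIN5, against 16.7, 15.4 and 15.7 in Input GEMIN5 (limma adjusted p = 0.00249). It had 33.8, 31.2, 29.95 and 25.6 in polysome control, against 16.8, 17.0, 18.6 and 17.1 in Input control (limma adjusted p = 0.0946, unadjusted p = 0.000194). In both kinds of cells every polysome library lay above every Input library. A donor of RPL35A (chromosome 3, position 197950221) had 25.6 ± 1.99 in polysome GEMIN5 (SD, n = 4), against 39.2 ± 3.44 in Input GEMIN5 (SD, n = 3, limma adjusted p = 0.0126). The other called donor of RPL35A (position 197950299) lost its call without Input GEMIN5 replicate 1 (limma adjusted p = 0.0543) or 3 (0.0538). The RPL13A donor had 5.41, 4.28, 1.77 and 0 in polysome GEMIN5, against 0.39, 0.24 and 0 in Input GEMIN5, and these groups overlapped. It passed the filter of a PSI of 5 or more only through polysome GEMIN5 replicate 1, at 5.41. The RPL27 intron also reached 5 only in that library, at 5.77. Both events thus entered this comparison through the group where they are high, and their calls lend it no support. The RPL41 intron call was lost with the replicate number as a block (limma adjusted p = 0.0739). Leaving out any single library of Input GEMIN5, Input control or polysome GEMIN5, or polysome control replicate 4, lost it too (0.0503 to 0.103). RPL13 lost its call without Input GEMIN5 replicate 1 (limma adjusted p = 0.0813) or polysome GEMIN5 replicate 2 (0.0551). The intron of RPL36A (limma adjusted p = 0.0347) rested on 39 to 186 reads, and its call was lost with the replicate number as a block (0.0597). It was also lost without Input GEMIN5 replicate 2 (0.14) or 3 (0.068) and without polysome GEMIN5 replicate 1 (0.0619), 2 (0.0926) or 3 (0.0598).

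**Figure D5:**
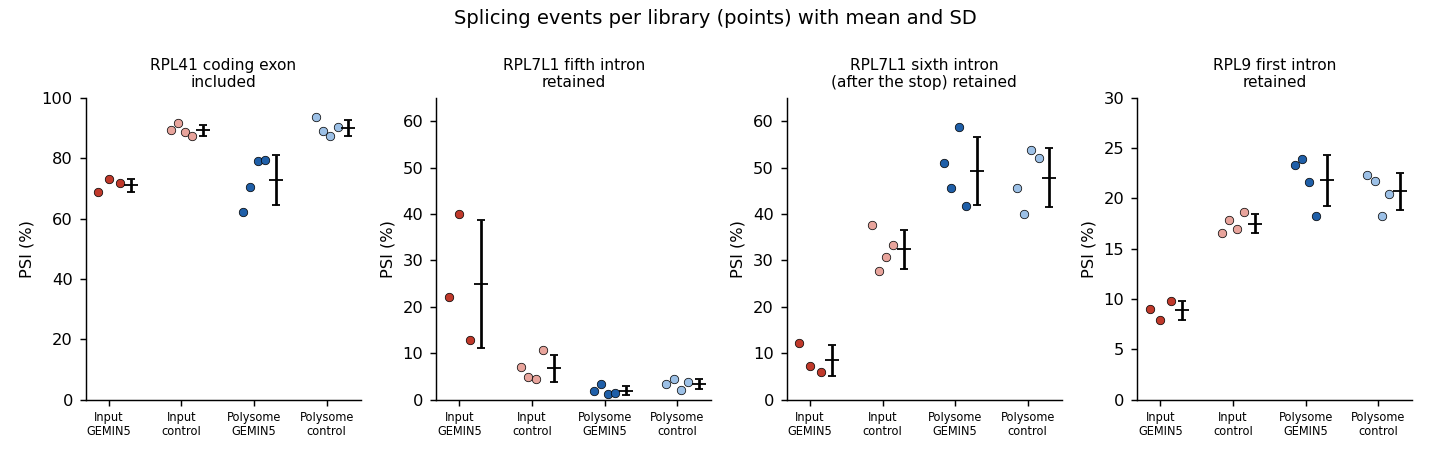
PSI (%) in each of the 15 libraries for the RPL41 coding exon, introns 5 and 6 of RPL7L1 and the first intron of RPL9, with Input GEMIN5 left of Input control and polysome GEMIN5 left of polysome control; points are libraries and bars are means ± SD. For the RPL41 exon every GEMIN5 library lay below every control library in both fractions (means of 71.1 in Input GEMIN5 and 89.3 in Input control), whereas for the 3 introns the polysome groups overlapped.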

How the data were processed

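The authors deposited a table of gene counts, whole-number reads per Ensembl gene that were not normalized. Per the submitters' processing notes, reads were processed with STAR 2.7.10a, featureCounts and GRCh38/hg38. The counter's version and its options on strand, introns and overlapping genes are not given in the sources, although the library kit keeps strand, per the labels' protocols. PSI, a percent per event, and a quality column of the unit other, which holds corrected inclusion and exclusion read numbers, were deposited by the authors in the layout of vast-tools for hg38, per the file headers.

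IDs were matched to GENCODE 29 (21494 of 21519). The 12197 genes that passed filterByExpr were fitted over all 15 libraries with TMM scaling and the quasi-likelihood test of edgeR 4.0.16 in R 4.3.3, with Benjamini-Hochberg adjustment over all genes. Events needed 10 or more corrected reads in each library and a PSI reaching 5 or more in one and 95 or less in another. Their log2 odds, computed after adding 0.5 to inclusion and exclusion reads, were fitted with limma 3.58.1 (robust, with trend) and adjusted over all event types together. Spliced reads were the reads across the exon junction of intron events, an entry of the quality column separate from the corrected exclusion reads. They were summed per gene and fitted alike. DESeq2 1.42.0, other scalings, filters, sample sets and leaving out each library were alternatives. The tests were checked on simulated counts. The members, the gene lists and the tests were chosen with earlier results of these data known. Spliced reads and the fits without Input control replicates 3 and 4 were added after seeing the data. Members with values in every library were the highest and lowest of a comparison, those called against the majority, the paralogues, stalk and 5S proteins, and RPL3, RPL10A and RPL12. RPL38, RPL28 and RPL41 were named after their values were seen.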

Additional observations from a re-analysis of the deposited data

Results flagged for a closer look

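The GEMIN5 effect on the members differed between the fractions. It was lower in polysomes than in Input for 45 of the 48 tested members by the interaction test of edgeR (adjusted p under 0.05), where 20.5% of all tested genes were called lower. With library totals only, 34 members were called lower and 5 higher, beside 3.17% and 69% of all tested genes. For RPL39 the difference of the log2 fold changes was -2.81 (SE 0.291, adjusted p = 2.42e-06, edgeR), with all 3 Input GEMIN5 libraries above all Input control libraries and overlapping polysome groups. RPL5 had a difference of -0.51 (SE 0.187, adjusted p = 0.039, edgeR), which was not called with the replicate number as a block (adjusted p = 0.0743) or without any one of 10 libraries (edgeR adjusted p = 0.0541 to 0.374), and which was 0.79 with library totals only. In RPL7L1 the change of PSI with GEMIN5 was 19.6 points lower in polysomes than in Input for intron 5 (a difference of -19.6) and 25.3 points higher for intron 6. Beside these values, the 5′ to 3′ ratio of spliced reads was lower in the Input GEMIN5 libraries and their TMM factors were lower, and the part of either in the differences was not tested.

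Single libraries stood apart from the rest of their group in 4 of 99 groups examined for the named members and called events, and chance alone sets apart about 1 in 20 groups. RPL37A had 4837.6 CPM in Input control replicate 4, below the 3 other Input control libraries. A donor of RPL13A (chr19:49489850-49490090) had a PSI of 0.7 in Input control replicate 3 and of 2.45 in polysome control replicate 1, with 0 in the other libraries of each group. The first intron of RPLP0 had a PSI of 18.58 in Input control replicate 3, above the 3 others.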

How the results depend on the processing

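Depth did not limit most members, but RPL22 and RPL36A rested on few counts, and events of RPL7L1 on as few as 18 reads. With library totals only, 76% of all tested genes were called lower in Input and 69% higher in the difference. In polysomes against Input 84.5% were higher in GEMIN5 cells and 53.2% in control cells. Dividing by library totals only left 6 members lower in Input and 5 higher in each of the difference, polysomes against Input in GEMIN5 cells and the same in control cells. It turned RPL22 (-0.46), RPL3 (-1.12), RPL36A (-0.023), RPL5 (-0.87), RPL6 (-0.37), RPL14 (-0.39) and RPL7 (-0.079) in Input, RPL22 (0.32), RPL3 (1.00), RPL5 (0.79), RPL6 (0.24) and RPL14 (0.34) in the difference, RPL22 (0.56), RPL26L1 (0.26), RPL3 (0.39), RPL4 (0.88) and RPL5 (0.078) in polysomes against Input in GEMIN5 cells, and RPL22L1 (0.28), RPL26L1 (0.40) and RPL36AL (0.24) in control cells, all on the log2 scale. Members lower in Input numbered 2 by DESeq2, 2 with no filter on low counts, 2 with a fit of the groups compared alone, 1 to 2 with a library left out, and 0 without Input control replicates 3 and 4. Members higher in the difference numbered 1 by DESeq2 and 0 to 1 with a library left out. Without the PSI range filter, events near 0 or 100 were tested too, and of 689 member events 232 were called in Input (33.7%, beside 45.2% of all 76301 events), 124 in the difference (18%, beside 33.2%), 300 in polysomes against Input of GEMIN5 cells (43.5%, beside 46.3%) and 59 of control cells (8.56%, beside 2.39%). Adding 1 to each read number gave 4 events in the difference, at least 20 reads gave 1 in polysomes against Input of control cells, leaving out a library gave 1 to 2 in the difference, and leaving out Input control replicates 3 and 4 gave 3 in Input and 0 in the difference. Without mitochondrial genes in the denominator the share of the members was 20.7% in Input control. The causes were not tested, other than the filter's.

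With the replicate number as a block, the paired analysis called 45 members higher and 1 lower in Input, 0 in polysomes, 44 lower in the difference, and 1 higher in each comparison of polysomes with Input, with 47 lower in GEMIN5 cells and 41 in control cells. It called 6 events in Input and 12 in polysomes against Input of GEMIN5 cells. The shares of all genes and events called with this block are not given here. Over the alternative fits, all genes called ran from 5243 to 9875 in Input, 9 to 112 in polysomes and 3702 to 8799 in the difference. They ran from 7585 to 10775 in polysomes against Input of GEMIN5 cells and from 3682 to 7052 in control cells. Correlations of the deviations of same-numbered samples ran from -0.737 to 0.662 and were not over 0.1 in every pair, so the numbers were not taken as pairs; whether they share a culture is not given in the sources used here.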
